A study of Rattus norvegicus with 12 samples.

Results

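The CYP1, CYP2 and CYP3 genes encode the cytochrome P450 families that liver uses mainly to oxidise drugs, pollutants and steroids. They were taken as the genes whose symbol starts with CYP, a family number from 1 to 3, a subfamily letter and a digit, and whose highest level over the 12 columns of the RPKM table was at least 1 RPKM. RPKM is the number of reads on a gene divided by the length of its transcript and by the reads of the library. It is meant to let levels be set side by side between genes and between columns. The columns were still not on fully equal terms, since their totals ran from 727435 RPKM (BA at 12 h) to 982826 RPKM (BA at 4 h). The rule found 33 symbols and kept 29 genes, out of 14692 genes listed and 9063 genes that reached 1 RPKM in at least 1 column. Just inside the threshold lay CYP2A3A, with a highest level of 2.52 RPKM, CYP2U1 with 2.93 RPKM and CYP2C80 with 3.35 RPKM. Just outside it lay CYP2S1, with a highest level of 0.47 RPKM, CYP1B1 with 0.28 RPKM, CYP2B15 with 0.01 RPKM and CYP2G1, which was listed at 0 throughout. CYP2A3A exceeded 1 RPKM in Control at 12 h alone and CYP2C80 in Control at 0 h alone. Their differences from those columns follow from the rule, save that of CYP2C80 between 0 and 4 h in Control. At 4 h in Control CYP2C80 was listed at 1.00 RPKM, which also meets the rule. All 29 genes were matched to a RefSeq gene, 26 by their current symbol and 3 by an older one.

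Cytochrome P450 enzymes are haem proteins of the endoplasmic reticulum that insert oxygen into lipid-soluble compounds, using electrons handed on by P450 reductase (POR) and cytochrome b5. Their genes are switched on by receptors that sense foreign compounds and bile acids. AHR drives CYP1A genes, CAR (NR1I3) drives CYP2B genes and PXR (NR1I2) drives CYP3A genes. In rat liver many CYP2A, CYP2C and CYP3A genes are also set by sex, because the pulses of growth hormone in males and its steadier level in females keep different P450 genes active. P450 genes are further known to be lowered in inflamed liver, and most of the abundant ones are read in hepatocytes around the central vein.

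The study asked how bile acid return shapes liver regeneration after partial hepatectomy (PH), the surgical removal of 2/3 of the liver. All rats were male Sprague Dawley animals aged 4 to 5 months, all carried a duodenal catheter, and all went through PH, with liver taken at 0, 4, 12 or 24 h afterwards. Surgery took place 24 h before PH and was a sham procedure in Control and a biliary fistula, which drains the bile to the outside, in BF and BA. Saline was infused through the catheter in all rats. BA rats were also given the bile salt sodium taurocholate by that route, 0.5 mg/g/day, starting 12 h ahead of PH. The 0 h columns of BF and BA therefore already stand for a day with a fistula. The column names follow the sample titles read as in the paper, while the sample descriptions give the opposite meaning to BF and BA. CYP7A1, the rate-limiting enzyme of bile acid synthesis, and CYP8B1, which makes cholic acid, are P450 genes of other families that returning bile acid is known to hold down. Before PH, BF held 387 RPKM of CYP7A1, BA 54.9 RPKM and Control 60.0 RPKM. CYP8B1 was at 1576 RPKM in BF, 110.2 RPKM in BA and 136 RPKM in Control at that time. Both were far higher in BF and near Control in BA, the order that the titles give to a fistula without and with bile acid, and the groups are named by title below.

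The authors averaged 2 runs into each column, the first made from a single rat and the second from a pool of 3 rats, and the spread between rats is lost in that average. No difference below has a replicate check, an error or a p-value, and the number of reads behind a level is unknown. Differences are given on the log2(RPKM + 1) scale, which understates the change of weakly expressed genes, and a gene is said to rise or fall only where it changed at least 2-fold on that scale. In whole liver, fewer cells of a type and less RNA per cell cannot be told apart. Hepatocyte markers were high in every column, with ALB at 41049 RPKM or more, and the lymphocyte markers CD3E, CD3D and MS4A1 were each at 0.88 RPKM or less. A pair of columns stood apart. BA at 4 h held 303637 RPKM of ALB, 30.9% of its total, against 5.60% to 13.4% in the other columns. BF at 12 h held pancreatic acinar genes, whose 8 markers summed to 131 RPKM against at most 23.0 RPKM elsewhere. Of these 8, 7 were at least 2-fold higher in BF than in Control at 12 h. The exception was CELA1, at 6.03 RPKM in BF at 12 h, which made up 22.5 of the 23.0 RPKM in Control at 0 h.

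The 29 genes together were at their highest in Control at 0 h and at their lowest at 12 h in every group. Their summed level was 14592, 10901, 6262 and 9354 RPKM in Control at 0, 4, 12 and 24 h. In BF it was 11690.4, 7917, 5615 and 7367 RPKM, and in BA 9591, 6568, 5456 and 6725 RPKM. The sum at 12 h was thus 42.9% of that at 0 h in Control, 48.0% in BF and 56.9% in BA. As a share of all RPKM in a column, the genes took 1.96% in Control at 0 h and 0.668% in BA at 4 h, the ends of the range, and without ALB in the total the lowest share was 0.795% in BA at 12 h. Most of the sum came from CYP3A, CYP2C and CYP2E1, which in Control at 0 h stood at 4539, 4105 and 2463 RPKM.

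**Figure D1:**
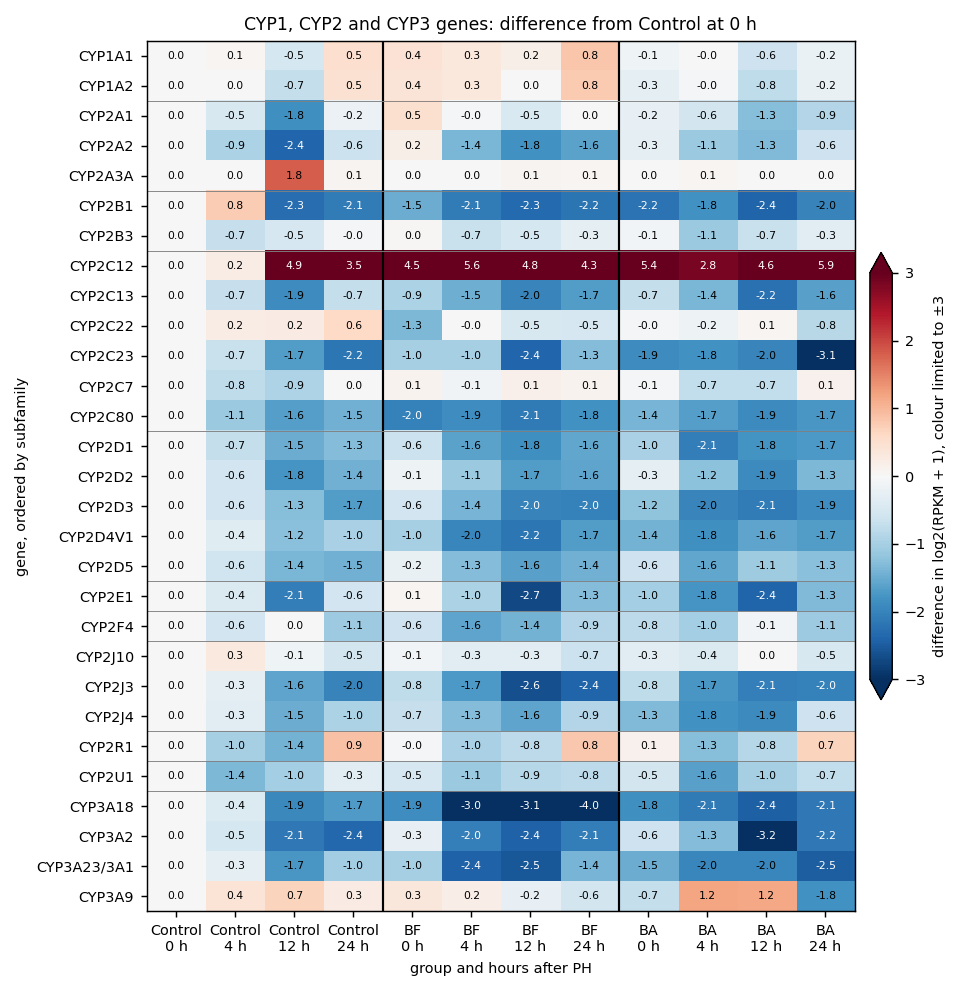
Difference in log2(RPKM + 1) of each of the 29 CYP1, CYP2 and CYP3 genes (rows, by subfamily) from its own level in Control at 0 h, in the 12 columns of 3 groups and 4 times, each the authors' mean of 2 runs. Most cells after 0 h are blue, CYP2C12 is deep red in every column but Control at 0 h, the reference, and at 4 h, where it differed by 0.22, and the CYP1A genes are paler than most.

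In Control, 2 of the 29 genes fell between 0 and 4 h (6.9%, against 5.03% of all 9063 genes) and none rose (3.85% of all genes did). At 12 h 19 genes had fallen (65.5%, against 9.56%) and 2 had risen (6.9%, against 3.86%), and at 24 h 12 genes were still at least 2-fold below 0 h (41.4%, against 3.01%) with 1 above it (3.45%, against 8.17%). The median difference of the 29 genes was -0.47, -1.43 and -0.71 at 4, 12 and 24 h, beside -0.19, -0.15 and 0.21 for all genes. The genes that fell at 4 h were CYP2U1 and CYP2C80. CYP2C80 exceeded 1 RPKM in Control at 0 h alone, so its falls at 12 and 24 h follow from the rule. At 4 h it was listed at 1.00 RPKM, at the threshold, and met the rule there as well. Its fall by 4 h was therefore not fixed by the rule, though the level is low. CYP2C12 rose at both 12 and 24 h, and CYP2A3A, which passed the rule through Control at 12 h, rose there. At 4 h the shares of the 29 genes were near those of all genes.

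In BF, 6 genes fell by 4 h (20.7%, against 6.58% of all genes) and CYP2C22 and CYP2C12 rose (6.9%, against 4.83%). At 12 h 13 genes had fallen (44.8%, against 4.85%) and at 24 h 8 genes (27.6%, against 1.81%), while none had risen at either time (2.57% and 9.19% of all genes). Medians of the 29 genes were -0.63, -0.90 and -0.46 at 4, 12 and 24 h, beside -0.08, -0.05 and 0.27 for all genes.

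In BA, 5 genes fell by 4 h (17.2%, against 12.5% of all genes), 7 by 12 h (24.1%, against 5.46%) and 5 by 24 h (17.2%, against 1.37%). CYP3A9 was the 1 gene that rose, at 4 h (3.45%, against 4.5%) and at 12 h (3.45%, against 1.26%), and none had risen at 24 h (3.7% of all genes). The medians were -0.49, -0.59 and -0.31, beside -0.30, -0.12 and 0.14 for all genes. With the columns rescaled to the same total, 14 genes fell in BA at 4 h, and with the columns rescaled on their median gene 3 did. The share of all genes under these scalings is not given, so neither count can be read as an excess. BA and BF started from lower levels at 0 h than Control did, so fewer genes falling from 0 h does not mean higher levels afterwards.

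**Figure D2:**
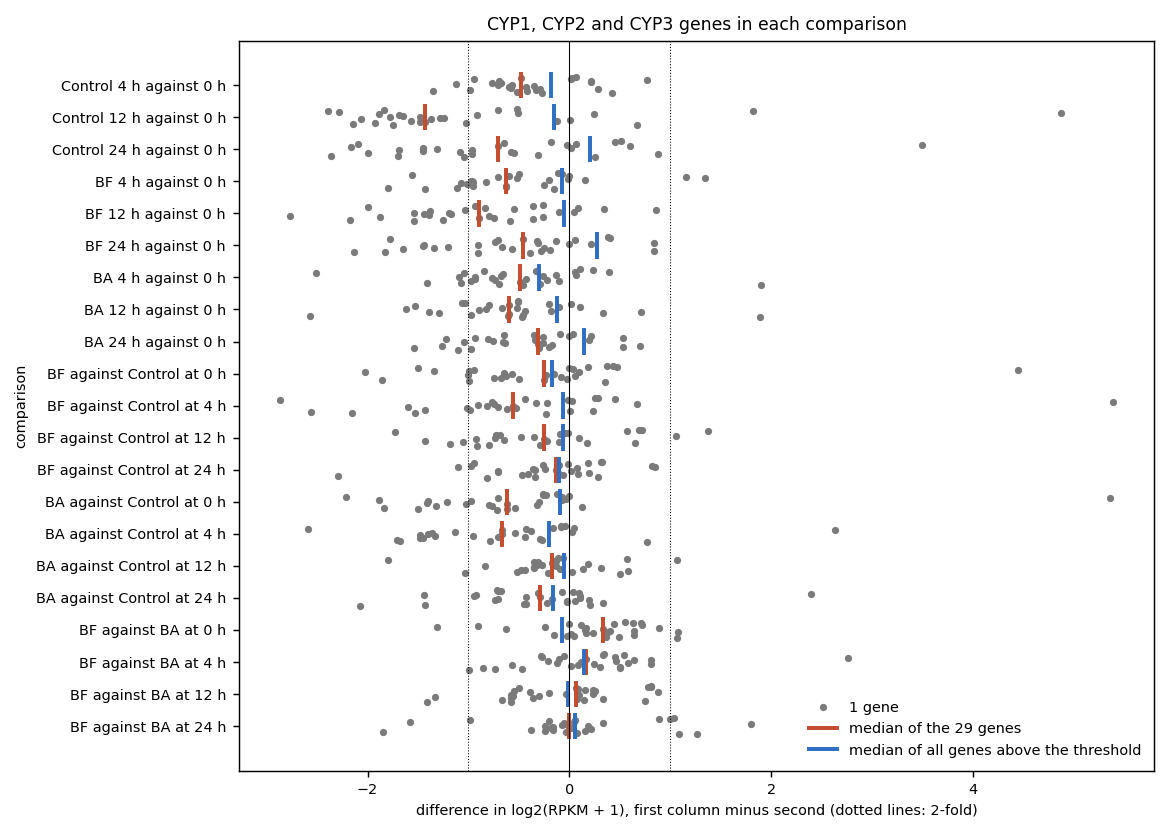
Each grey point is 1 of the 29 CYP1, CYP2 and CYP3 genes, placed by its difference in log2(RPKM + 1) in 1 of 21 comparisons (9 against 0 h, 12 between groups), with red bars for the median of the 29 genes and blue bars for the median of the 9063 genes. The red bar lies left of the blue one in all 9 comparisons with 0 h, farthest in Control at 12 h (-1.43 against -0.15).

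Of the 29 genes, 15 were lower at 4, 12 and 24 h than at 0 h in all 3 groups, compared with 11.6% of all genes. These were CYP2A1, CYP2A2, CYP2B3, CYP2C13, CYP2D1, CYP2D2, CYP2D3, CYP2D4V1, CYP2D5, CYP2E1, CYP2J3, CYP2U1, CYP3A2, CYP3A18 and CYP3A23/3A1. Control at 0 h was the highest of the 12 columns for 14 genes, compared with 16.6% of all genes. The 14 include CYP2C80, which exceeded 1 RPKM in that column alone. The lowest of the 4 times was 12 h in all 3 groups for 10 genes, compared with 9.46% of all genes. With the columns rescaled on their median gene it was so for 7, compared with 3.93% of all genes. Without BA at 4 h and BF at 12 h, 16 genes were lower than at 0 h throughout (12.4% of all genes). In that setting 14 were highest in Control at 0 h (17% of all genes).

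Promoters are shown for the most abundant gene of each family, CYP1A2, CYP2E1 and CYP3A2, and for CYP2C12, which was added after its levels were seen. Each runs from 250 bases before the RefSeq transcription start to 50 bases after it, in the GRCr8 build, and the strand is that of the gene. CYP1A2 lies at chr8:66978100-66978399, minus strand, CYP2E1 at chr1:205269717-205270016, plus strand, CYP3A2 at chr12:14343808-14344107, minus strand and CYP2C12 at chr1:248676985-248677284, minus strand. Capitals mark the motifs found on either strand, and no marked motifs overlap.
CYP1A2: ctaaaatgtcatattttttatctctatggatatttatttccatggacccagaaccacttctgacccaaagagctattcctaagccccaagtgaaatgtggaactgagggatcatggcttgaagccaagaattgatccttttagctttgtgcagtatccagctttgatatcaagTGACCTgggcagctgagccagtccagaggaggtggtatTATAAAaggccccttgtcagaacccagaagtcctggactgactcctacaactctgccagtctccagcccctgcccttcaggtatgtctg
CYP2E1: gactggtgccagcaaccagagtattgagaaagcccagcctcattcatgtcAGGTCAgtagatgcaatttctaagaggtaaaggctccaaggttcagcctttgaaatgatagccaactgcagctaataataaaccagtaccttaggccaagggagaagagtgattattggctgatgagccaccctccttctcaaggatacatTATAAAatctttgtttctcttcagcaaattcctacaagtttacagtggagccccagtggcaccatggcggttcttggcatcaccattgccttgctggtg
CYP3A2: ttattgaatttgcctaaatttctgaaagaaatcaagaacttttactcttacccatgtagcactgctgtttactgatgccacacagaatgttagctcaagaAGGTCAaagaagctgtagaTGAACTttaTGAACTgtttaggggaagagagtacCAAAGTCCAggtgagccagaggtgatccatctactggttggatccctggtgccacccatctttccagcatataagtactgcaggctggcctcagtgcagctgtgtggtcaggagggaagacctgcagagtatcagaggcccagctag
CYP2C12: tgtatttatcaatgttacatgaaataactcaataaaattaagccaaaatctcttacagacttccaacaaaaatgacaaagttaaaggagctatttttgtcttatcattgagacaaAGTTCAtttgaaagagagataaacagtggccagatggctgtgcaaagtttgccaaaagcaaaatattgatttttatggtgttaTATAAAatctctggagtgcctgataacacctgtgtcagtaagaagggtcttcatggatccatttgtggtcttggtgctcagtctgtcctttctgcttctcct
The motifs searched were GCGTG, the core bound by AHR, the receptor half-sites AGGTCA and AGTTCA, the HNF4A-type site CAAAGTCCA, the STAT5-type site TTCNNNGAA and the TATA box TATAAA. The CYP3A2 promoter holds AGGTCA 150 bases before the start, AGTTCA on the opposite strand at 131 and 122 bases, and CAAAGTCCA at 97 bases. In CYP2C12 AGTTCA lies 135 bases and TATAAA 52 bases before the start, in CYP2E1 AGGTCA lies at 200 and TATAAA at 49 bases, and in CYP1A2 AGGTCA lies on the opposite strand at 77 and TATAAA at 39 bases. Promoters were held for 27 of the 29 genes. Of these 27, CAAAGTCCA was found in 2, CYP3A2 and CYP3A23/3A1, while 0.39% of 33469 promoters of the same length hold it. AGTTCA was found in 9 of the 27 (14.47% of all promoters), among them all 4 CYP3A genes, and AGGTCA in 9 (16.18% of all). TATAAA was found in 12 (14.22%), GCGTG in 3 (29.7%) and TTCNNNGAA in 1, CYP2J4 (8.87%). A match describes letters and not binding, and sites outside this window were not searched.

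The summed CYP3A level was more than 2-fold below its 0 h value at 12 and 24 h in every group, and CYP3A2 was the gene of the 4 that fell at both times in each. CYP3A enzymes hydroxylate steroids and a wide range of drugs, and in rats CYP3A2 and CYP3A18 are male-predominant, CYP3A9 is female-predominant and CYP3A23/3A1 is the classic PXR-induced form. The summed level of the 4 genes at 12 h was 27.9% of that at 0 h in Control, 27.8% in BF and 40.8% in BA. At 24 h it was still 31.2%, 38.4% and 42.5% of the 0 h level.

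CYP3A2, the most abundant of the 4, was at 2405, 1674, 543 and 467 RPKM in Control at 0, 4, 12 and 24 h, at 2014, 580.2, 445 and 569 RPKM in BF and at 1569, 968, 264 and 539.6 RPKM in BA. All 3 groups started high and ended low, but the fall came by 4 h in BF (-1.79) and only by 12 h in Control (-2.14) and BA (-2.57). At 24 h it remained -2.36, -1.82 and -1.54 from 0 h in Control, BF and BA. CYP3A23/3A1 was at 1187, 981, 353 and 576 RPKM in Control at 0, 4, 12 and 24 h, at 594, 220.2, 203 and 454 RPKM in BF and at 421, 306, 304 and 213 RPKM in BA. Control at 0 and 4 h was above every other column, and at 0 h BA (-1.50) was more than 2-fold below Control while BF, with a difference of -0.998, was just short of 2-fold. By 4 h the level in BF had changed by a further -1.43 and at 24 h it was -0.39 from 0 h, while BA stayed within 2-fold of 0 h. CYP3A18 was at 855, 639, 224 and 263 RPKM in Control at 0, 4, 12 and 24 h, at 235, 108, 98.0 and 52.9 RPKM in BF and at 239, 195, 156 and 193 RPKM in BA. Here the fistula columns were low before PH, at -1.86 (BF) and -1.84 (BA) against Control at 0 h, and BF went on down to the lowest level of the 12 columns at 24 h, where it was -1.85 against BA. Control came down to the range of the fistula columns at 12 h, after a change of -1.93 from 0 h, and BA stayed within 2-fold of its own 0 h level.

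CYP3A9 did not follow the other 3 genes. It was at 91.8, 123, 147 and 109.5 RPKM in Control at 0, 4, 12 and 24 h, at 117, 105, 77.5 and 62.0 RPKM in BF and at 55.5, 209.8, 208 and 25.2 RPKM in BA. In Control it stayed within 2-fold of 0 h, in BF it was lower at each later time without reaching 2-fold, and in BA it rose by 1.90 at 4 h and 1.89 at 12 h before ending at the lowest of its 12 levels. BF was above BA at 0 h (1.07), below it at 12 h (-1.41) and above it again at 24 h (1.26).

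**Figure D3:**
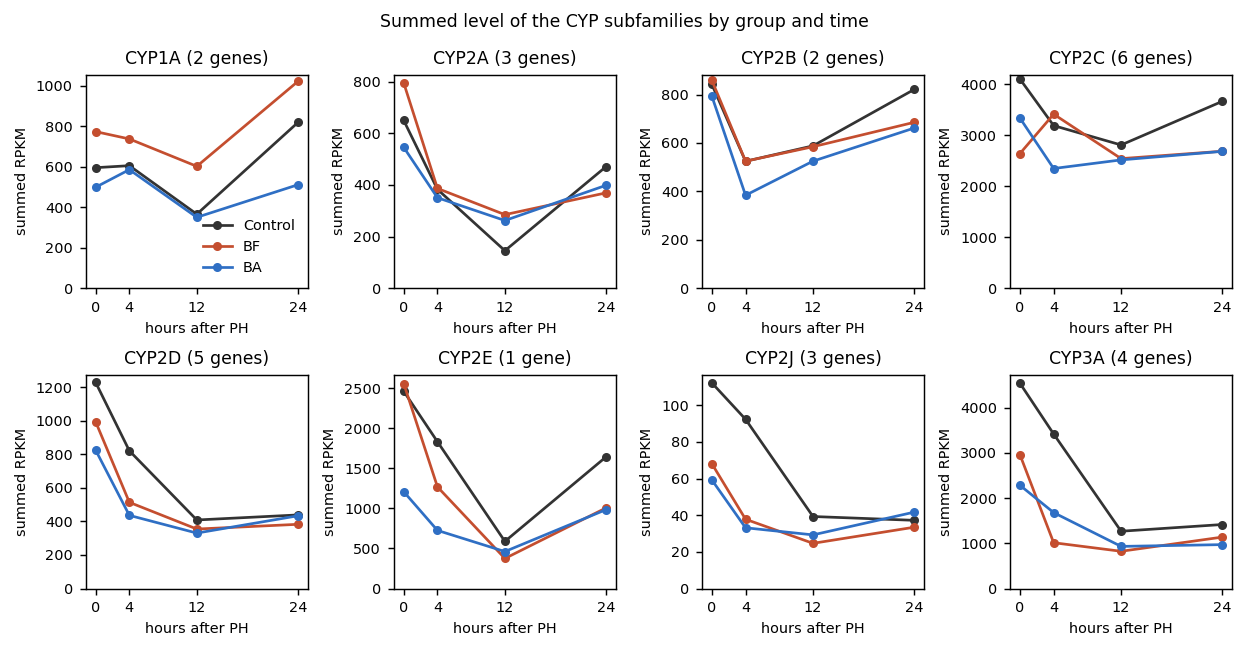
Summed RPKM of the genes of 8 CYP subfamilies (vertical axes from 0, each with its own scale) against hours after PH, for Control (black), BF (red) and BA (blue), 1 averaged value per point. CYP3A and CYP2D drop by 12 h and stay low at 24 h, CYP2E dips at 12 h and partly recovers, and CYP1A in BF ends at 1022 RPKM against 511 RPKM in BA.

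CYP2E1, which oxidises ethanol and small solvents and activates carbon tetrachloride and paracetamol, had the highest mean level of the 29 genes. It was at 2463, 1833, 589 and 1644 RPKM in Control at 0, 4, 12 and 24 h, at 2559, 1269, 375 and 1007 RPKM in BF and at 1209, 726, 462 and 985 RPKM in BA. Every group had its lowest level at 12 h, after a change of -2.06 in Control, -2.77 in BF and -1.39 in BA, and every group was higher again at 24 h. At 0 h BF was level with Control (0.06), whereas BA was -1.03 from Control and BF was 1.08 against BA. The change in BF by 4 h was -1.01 and that in Control -0.43.

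The CYP2D genes, relatives of the human debrisoquine hydroxylase, took similar courses. For their 10 pairs the SD of the log2 ratio over the 12 columns was between 0.234 and 0.588. The upper end was close to the 0.605 of CYP2A1 and CYP2A2. How far reads shared between CYP2D genes add to the likeness was not tested. Their summed level at 12 h was 33.3% of 0 h in Control, 35.7% in BF and 40.1% in BA, and at 24 h 35.7%, 38.5% and 52.6%. CYP2D2, which carries most of the debrisoquine activity in rats, was at 720.4, 487, 209 and 264 RPKM in Control at 0, 4, 12 and 24 h, at 649.9, 331, 223 and 239.6 RPKM in BF and at 585, 306, 190.2 and 283 RPKM in BA. It fell at 12 h in each group (-1.78, -1.54 and -1.62), and stayed more than 2-fold below 0 h at 24 h in each. CYP2D3 was at 301, 200.4, 123 and 92.8 RPKM in Control at 0, 4, 12 and 24 h, at 202, 113, 73.7 and 73.2 RPKM in BF and at 129.5, 75.5, 69.0 and 82.0 RPKM in BA. Control at 0 h was the highest column and BA at 12 h the lowest, and BA was -1.21 from Control at 0 h. CYP2D1 was at 117, 71.5, 41.4 and 46.8 RPKM in Control at 0, 4, 12 and 24 h, at 74.8, 37.8, 32.2 and 39.4 RPKM in BF and at 59.2, 27.1, 32.9 and 34.6 RPKM in BA. It reached its lowest level at 4 h in BA and at 12 h in Control and BF. CYP2D5 was at 65.0, 42.5, 24.6 and 23.1 RPKM in Control at 0, 4, 12 and 24 h, at 55.2, 25.6, 20.5 and 23.4 RPKM in BF and at 42.1, 21.5, 30.7 and 26.6 RPKM in BA. Its fall came at 12 h in Control (-1.37), by 4 h in BF (-1.08), and did not reach 2-fold at any time in BA. CYP2D4V1, an older symbol of Cyp2d4, ranged from 4.70 to 24.7 RPKM with its highest level in Control at 0 h.

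CYP2A1 and CYP2A2 are steroid hydroxylases, the former female- and the latter male-predominant. CYP2A2 was at 420.3, 218, 79.4 and 268 RPKM in Control at 0, 4, 12 and 24 h, at 476, 161, 118 and 139 RPKM in BF and at 351, 195, 168 and 274 RPKM in BA. In Control it fell at 12 h (-2.39) and was back within 2-fold of 0 h at 24 h (-0.65), in BF it was low at all 3 times after PH (-1.56, -2.00 and -1.77), and in BA it dipped at 12 h (-1.06). CYP2A1 was at 229.7, 165, 63.5 and 203 RPKM in Control at 0, 4, 12 and 24 h, at 319, 226, 167 and 231 RPKM in BF and at 195, 155, 94.6 and 124 RPKM in BA. It fell in Control (-1.84) and BA (-1.03) at 12 h, and BF, where it did not reach a 2-fold change, was 1.38 against Control at that time. CYP2A3A, an older symbol of Cyp2a3, a form known from the airways, was at 2.52 RPKM in Control at 12 h and at most 0.06 RPKM in the other columns.

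The CYP2B genes differed from each other in level and course. CYP2B3 was at 837, 515, 588 and 820.5 RPKM in Control at 0, 4, 12 and 24 h, at 858, 524, 584 and 685 RPKM in BF and at 793, 383, 525 and 661 RPKM in BA. It was lower at 4 and 12 h than at 0 h in each group, by 2-fold only in BA at 4 h (-1.05), where ALB took an unusual share of the column. CYP2B1, the gene that phenobarbital induces through CAR, was at 5.12, 9.41, 0.26 and 0.43 RPKM in Control at 0, 4, 12 and 24 h, at 1.17, 0.43, 0.22 and 0.33 RPKM in BF and at 0.32, 0.73, 0.15 and 0.53 RPKM in BA. It was above 5 RPKM in Control at 0 and 4 h alone and at most 1.17 RPKM elsewhere, and in Control it was 19.7-fold lower at 12 h than at 0 h as a plain ratio of RPKM. Before PH it was -1.50 in BF and -2.21 in BA against Control.

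The CYP1A genes stayed within 2-fold of 0 h at every time in each group, as did CYP2C7 and CYP2J10. They metabolise aromatic amines, polycyclic hydrocarbons and caffeine, and are the standard AHR targets. CYP1A2 was at 583, 592, 357 and 801 RPKM in Control at 0, 4, 12 and 24 h, at 756, 721, 588 and 999 RPKM in BF and at 487, 573, 342 and 500.4 RPKM in BA. Each group had its lowest level at 12 h, and the largest change from 0 h was -0.70 in Control at 12 h. Levels in BF were above those in BA at every time, with differences of 0.63, 0.33, 0.78 and 0.99 at 0, 4, 12 and 24 h. CYP1A1 ranged from 7.88 to 23.3 RPKM and was between 2.18% and 2.47% of CYP1A2 in all 12 columns. The SD of the log2 ratio of the pair over the columns was 0.058, compared with 0.234 to 2.63 for the other pairs within a subfamily. Reads of 50 bases can fall on stretches that related genes share, and how much of the CYP1A1 level came from such reads was not tested.

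The CYP2C genes took different courses. CYP2C13, a male-predominant steroid hydroxylase, was at 1018, 628, 275 and 622 RPKM in Control at 0, 4, 12 and 24 h, at 528, 369, 257 and 316 RPKM in BF and at 623, 395, 215 and 326 RPKM in BA. It was highest in Control at 0 h and lowest at 12 h in every group, after changes of -1.88, -1.03 and -1.53. CYP2C23, which turns arachidonic acid into epoxides, was at 1033, 645, 320.2 and 230.5 RPKM in Control at 0, 4, 12 and 24 h, at 518, 514, 198 and 416 RPKM in BF and at 279, 292, 261 and 119 RPKM in BA. The level in Control at 0 h was the highest, BA was already -1.89 from it at 0 h, and BF exceeded BA by 1.80 at 24 h. CYP2C22, which oxidises retinoic acid, was at 1231, 1430.1, 1458 and 1868 RPKM in Control at 0, 4, 12 and 24 h, at 484, 1229.8, 882 and 868 RPKM in BF and at 1202, 1099, 1292 and 686 RPKM in BA. It stayed within 2-fold of 0 h in Control and BA, while BF started -1.34 from Control and had risen by 1.34 at 4 h. CYP2C7, a female-predominant gene, was at 809, 475, 427 and 819 RPKM in Control at 0, 4, 12 and 24 h, at 866, 754, 893 and 863 RPKM in BF and at 770.5, 482, 484 and 883 RPKM in BA. No group changed 2-fold from 0 h, and at 12 h BF was 1.06 against Control. CYP2C80, an older symbol of Cyp2c55, was at 3.35, 1.00, 0.39 and 0.59 RPKM in Control at 0, 4, 12 and 24 h, at 0.07, 0.19, 0 and 0.24 RPKM in BF and at 0.65, 0.38, 0.15 and 0.3 RPKM in BA. Control at 0 h was the highest column and BF at 12 h was listed at 0.

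CYP2C12, the steroid sulphate hydroxylase that marks female rat liver, changed more than any other of the 29 genes. It was at 10.3, 12.2, 330.3 and 126 RPKM in Control at 0, 4, 12 and 24 h, at 247, 549, 313 and 224 RPKM in BF and at 463, 80.3, 266 and 671 RPKM in BA. Control at 0 and 4 h had low levels, and the other 10 columns were between 80.3 and 671 RPKM. Within Control the level at 12 h was 32.0-fold that at 0 h, a difference of 4.87, and at 24 h it was still 3.49 above 0 h. At 0 h BF was 4.45 and BA 5.36 above Control, the largest differences of any member at that time. From 0 to 4 h BF rose by 1.15 and BA fell (-2.51), so that BF was 2.76 against BA at 4 h and -1.58 at 24 h. All libraries are labelled male, and with 1 averaged column per group and time it is unknown whether all rats behind a column had such levels.

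The gene symbol CYP2C, with no number, is an older name of Cyp2c11, the main male-specific P450 of rat liver. It is not among the 29 genes by the rule, and it was at 2997, 2089.8, 916 and 623 RPKM in Control at 0, 4, 12 and 24 h, at 696, 363, 205 and 92.6 RPKM in BF and at 926, 634, 462 and 143 RPKM in BA. It declined at every step in all 3 groups, down to 92.6 RPKM in BF at 24 h. The 5 textbook male-predominant genes, namely CYP2C11 read from this symbol, CYP2C13, CYP2A2, CYP3A2 and CYP3A18, were summed and set beside the female-predominant CYP2C12, CYP2A1, CYP2C7 and CYP3A9. The male-predominant sum was 7696, 5249, 2038 and 2244 RPKM in Control at 0, 4, 12 and 24 h, and the female-predominant sum was 1141, 775, 967 and 1258 RPKM. The female-predominant share of the 9 genes went from 12.9% at 0 h to 35.9% at 24 h in Control. In BF that share was 28.2% at 0 h and 54.2% at 24 h. In BA it was 28.6% and 53.6%. The female-predominant sum lay between 775 and 1703 RPKM in all 12 columns. The male-predominant sum spanned 1123 to 7696 RPKM.

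**Figure D4:**
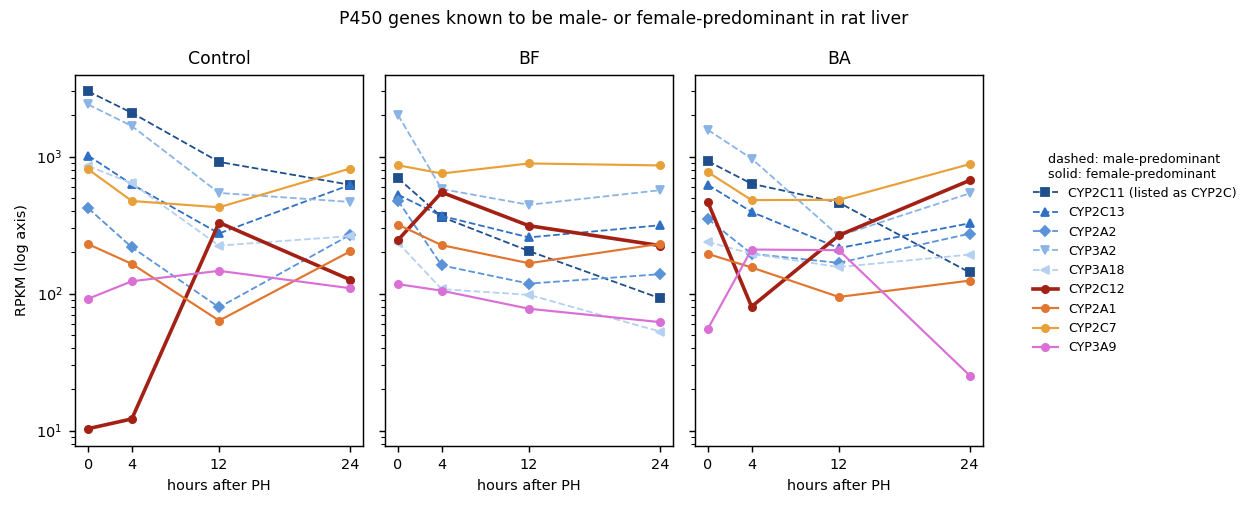
RPKM on a log axis against hours after PH for 5 male-predominant (dashed, blue) and 4 female-predominant (solid, warm colours) P450 genes, in Control, BF and BA, 1 averaged value per point. The dashed lines run downward from 0 to 12 h in each group, and CYP2C12 (thick) climbs from 10.3 to 330.3 RPKM in Control while starting at 247 RPKM in BF and 463 RPKM in BA.

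Of the genes that read growth hormone, CISH and SOCS2 are feedback inhibitors that the hormone induces through STAT5, and ONECUT1 is a factor known to act on CYP2C12. CISH was at 29.4, 10.9, 29.3 and 6.69 RPKM in Control at 0, 4, 12 and 24 h, at 3.85, 9.31, 6.94 and 13.5 RPKM in BF and at 5.76, 12.3, 4.46 and 12.6 RPKM in BA. It was lower in BF (-2.65) and BA (-2.17) than in Control at 0 h. SOCS2 was at 38.7, 34.9, 24.0 and 9.27 RPKM in Control at 0, 4, 12 and 24 h, at 7.24, 16.4, 1.90 and 25.4 RPKM in BF and at 7.46, 50.3, 5.11 and 12.2 RPKM in BA. It was at its lowest in BF at 12 h. ONECUT1 was at 32.1, 52.3, 36.0 and 17.8 RPKM in Control at 0, 4, 12 and 24 h, at 11.3, 36.3, 9.91 and 30.8 RPKM in BF and at 10.3, 55.6, 13.5 and 17.9 RPKM in BA. SOCS2 and ONECUT1 were also more than 2-fold lower in BF and BA than in Control at 0 h, so that 3 of the list of 8 were lower in each, compared with 2.21% of all genes in BF and 2.16% in BA. The other 5 genes (GHR, STAT5A, STAT5B, BCL6 and SOCS3) were within 2-fold in both comparisons. The growth hormone receptor GHR ranged from 137 to 238 RPKM over all columns.

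The small CYP2J, CYP2F, CYP2R and CYP2U subfamilies include enzymes for fatty acids and vitamin D. CYP2J3, an arachidonic acid epoxygenase, was at 74.4, 60.6, 24.3 and 17.9 RPKM in Control at 0, 4, 12 and 24 h, at 43.8, 21.9, 11.2 and 13.3 RPKM in BF and at 43.4, 21.6, 17.2 and 17.6 RPKM in BA. It fell at 12 and 24 h in all 3 groups, and at 24 h the difference from 0 h was -1.99 in Control, -1.65 in BF and -1.26 in BA. CYP2J4 ranged from 8.29 to 34.1 RPKM, with its highest level in Control at 0 h, and CYP2J10 from 2.03 to 4.81 RPKM. CYP2F4, which activates naphthalene, was at 44.5, 29.5, 44.8 and 20.5 RPKM in Control at 0, 4, 12 and 24 h, at 28.4, 14.1, 16.0 and 23.7 RPKM in BF and at 25.3, 21.5, 41.9 and 20.2 RPKM in BA. Control at 0 and 12 h and BA at 12 h were high and BF at 12 h was low, with a difference of -1.43 between BF and Control. CYP2R1, which carries out the first activation step of vitamin D, ranged from 2.72 to 17.4 RPKM and was highest at 24 h in each group, at 17.4 RPKM in Control, 16.6 RPKM in BF and 14.8 RPKM in BA. CYP2U1, a fatty acid hydroxylase, ranged from 0.28 to 2.93 RPKM and was lowest at 4 h in each group.

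Before PH, the fistula groups already differed from Control. At 0 h, 5 of the 29 genes were at least 2-fold lower in BF than in Control (17.2%, against 2.21% of all genes) and 1 was higher (3.45%, against 1.62%). In BA 9 genes were lower (31%, against 2.16%) and 1 was higher (3.45%, against 1.78%). CYP2B1, CYP2C80, CYP2D4V1 and CYP3A18 were among the lower genes in both, CYP2C22 was the fifth in BF, and CYP2C23, CYP2D3, CYP2E1, CYP2J4 and CYP3A23/3A1 were the others in BA. In BF CYP2C23 (-0.996) and CYP3A23/3A1 (-0.998) were just short of 2-fold, CYP2D3 was at -0.57 and CYP2J4 at -0.68, and of these genes CYP2C22 and CYP2E1 were 2-fold apart between BF and BA. Both comparisons use the same Control column. CYP2C80 exceeded 1 RPKM in that column alone, so its lower level in BF and BA follows from the rule. The medians were -0.26 in BF and -0.62 in BA, beside -0.17 and -0.09 for all genes.

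At 4 h the genes below Control were most numerous. In BF 7 genes were lower (24.1%, against 3.06% of all genes) and CYP2C12 was higher (3.45%, against 1.13%), and in BA 10 genes were lower (34.5%, against 5.02%) and CYP2C12 was higher (3.45%, against 2.02%). The strongest of these were CYP2B1 (-2.86 in BF and -2.59 in BA), CYP3A18 (-2.56 and -1.71) and CYP3A23/3A1 (-2.15 and -1.68). The median of the 29 genes in BA against Control was -0.67, and -0.56 in BF, where the ALB level was in the range of the other columns. For all genes these medians were -0.20 and -0.06.

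At 12 and 24 h fewer of the 29 genes were 2-fold below Control than at 4 h. At 12 h CYP2A3A was lower in BF and BA, as the rule had fixed. In BF CYP2A3A, CYP2F4, CYP2J3 and CYP3A18 were lower (13.8%, against 1.69% of all genes) and CYP2A1 and CYP2C7 were higher (6.9%, against 1.95%), and in BA CYP2A3A and CYP3A2 were lower (6.9%, against 1.13%) and CYP2A2 was higher (3.45%, against 0.552%). At 24 h CYP3A18 and CYP2C22 were lower in BF (6.9%, against 1.26%) and none was higher (0.817% of all genes). In BA CYP3A9, CYP2C22 and CYP3A23/3A1 were lower (10.3%, against 1.26%) and CYP2C12 was higher (3.45%, against 0.728%). The medians were -0.25 and -0.17 at 12 h and -0.14 and -0.29 at 24 h for BF and BA, beside -0.06, -0.05, -0.11 and -0.17 for all genes.

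BF and BA, which by the titles differ in the duodenal bile acid, were at least 2-fold apart in 3 of the 29 genes at 0 h, 1 at 4 h, 2 at 12 h and 6 at 24 h. At 0 h CYP2E1 and CYP3A9 were higher in BF (6.9%, against 0.397% of all genes) and CYP2C22 was lower (3.45%, against 1.32%). At 4 h CYP2C12 was higher in BF (3.45%, against 2.24%) and none was lower (2.33% of all genes), while at 12 h none was higher (1.31%) and CYP3A9 and CYP2F4 were lower (6.9%, against 0.717%). At 24 h CYP2C23, CYP3A9, CYP3A23/3A1 and CYP1A1 were higher in BF (13.8%, against 1%) and CYP3A18 and CYP2C12 were lower (6.9%, against 0.938%). The median difference was 0.33, 0.16, 0.07 and -0.002 at 0, 4, 12 and 24 h, beside -0.07, 0.14, -0.01 and 0.06 for all genes. With the groups named as in the sample descriptions each of these differences changes sign, but CYP7A1 and CYP8B1 at 0 h were ordered as the titles have it.

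The receptors behind P450 induction had courses of their own. NR1I3, the receptor CAR, was at 77.8, 10.2, 6.77 and 26.0 RPKM in Control at 0, 4, 12 and 24 h, at 56.6, 2.37, 13.5 and 16.5 RPKM in BF and at 24.0, 1.70, 11.2 and 25.4 RPKM in BA. It was highest at 0 h in Control and BF, it fell by 4 h in every group (-2.81 in Control, -4.09 in BF and -3.21 in BA), and at 24 h it was higher again in every group. NR1I2, the receptor PXR, was at 89.5, 118, 54.8 and 98.0 RPKM in Control at 0, 4, 12 and 24 h, at 64.5, 97.6, 51.9 and 66.8 RPKM in BF and at 63.6, 50.7, 56.6 and 71.6 RPKM in BA, with no change of 2-fold from 0 h. AHR was at 14.0, 3.67, 8.31 and 12.5 RPKM in Control at 0, 4, 12 and 24 h, at 15.3, 6.01, 12.5 and 19.8 RPKM in BF and at 7.54, 4.77, 11.2 and 13.2 RPKM in BA. It fell by 4 h in Control (-1.69) and BF (-1.22) and was higher again at 24 h. PPARA, the fatty acid receptor, was at 30.5, 17.6, 3.91 and 20.1 RPKM in Control at 0, 4, 12 and 24 h, at 11.4, 4.87, 11.8 and 11.7 RPKM in BF and at 28.8, 16.2, 4.67 and 21.6 RPKM in BA. Control and BA dropped at 12 h (-2.68 and -2.39), while BF was already -1.34 from Control at 0 h and at 12 h was above both. CEBPA, a hepatocyte factor, was at 111, 35.4, 37.5 and 60.8 RPKM in Control at 0, 4, 12 and 24 h, at 79.8, 30.8, 37.7 and 56.7 RPKM in BF and at 87.6, 30.4, 26.1 and 59.6 RPKM in BA, lower at 4 and 12 h than at 0 h in every group. Among the other receptors and partners, HNF4A ranged from 118 to 218 RPKM, RXRA from 99.7 to 170.3 RPKM, ARNT from 9.97 to 19.7 RPKM, NR3C1 from 14.7 to 36.8 RPKM, the bile acid receptor NR1H4 from 11.0 to 53.2 RPKM and CEBPB from 24.3 to 145 RPKM, and AHRR did not exceed 0.04 RPKM. Of these 12 genes, 5 fell at 12 h in Control, 2 in BF and 4 in BA, where 9.56%, 4.85% and 5.46% of all genes did.

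**Figure D5:**
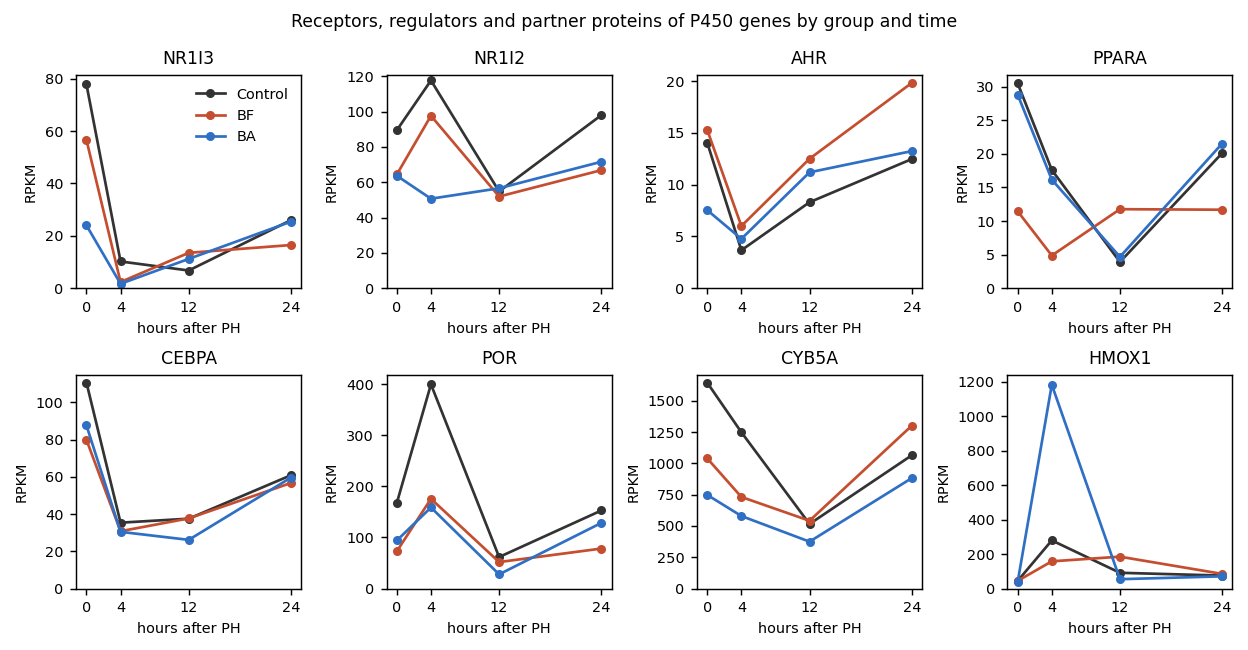
RPKM (vertical axes from 0, each with its own scale) against hours after PH for 8 receptors, regulators and partner proteins of P450 genes in Control (black), BF (red) and BA (blue), 1 averaged value per point. NR1I3 drops at 4 h in every group to between 1.70 and 10.2 RPKM, POR peaks at 4 h, and HMOX1 reaches 1182 RPKM in BA at 4 h.

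Targets of these receptors are among the 29 genes themselves. Of the AHR targets, CYP1A1 and CYP1A2 did not fall from 0 h in any group, and CYP1B1, at 0.28 RPKM or less, was too low to fall 2-fold on this scale. Of the 5 CAR and PXR targets found, CYP2B15 was at 0.01 RPKM or less and could not fall either. The other 4 (CYP2B1, CYP3A2, CYP3A18 and CYP3A23/3A1) fell in Control at both 12 h (9.56% of all genes did) and 24 h (3.01%), and the medians of the 5 were -1.93 and -1.70. At 12 h the 3 CYP3A genes of the list fell in BF (4.85% of all genes) and CYP3A2 fell in BA (5.46%), where CYP2B1 started at 0.32 RPKM and had no 2-fold to lose. Among the 8 pericentral genes found, CYP2E1 and CYP1A2 included, 4 fell at 12 h in Control and the median was -1.20. Among 8 periportal genes 4 fell and the median was -0.88, beside 9.56% of all genes and a median of -0.15. At 12 h in BF 3 pericentral genes (median -0.57) and 5 periportal genes (median -1.06) fell, beside 4.85% of all genes. In BA 2 of each list fell (medians -0.58 and -0.08), beside 5.46% of all genes.

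P450 enzymes also need electrons and haem. POR, the reductase, was at 168, 399, 61.6 and 153 RPKM in Control at 0, 4, 12 and 24 h, at 73.1, 176, 51.8 and 78.2 RPKM in BF and at 94.1, 159, 27.8 and 128 RPKM in BA. It rose at 4 h in Control (1.25) and BF (1.25), differed by 0.75 in BA, and was below its 0 h level at 12 h in each group (-1.43, -0.49 and -1.73). CYB5A, cytochrome b5, was at 1644, 1248, 516 and 1064 RPKM in Control at 0, 4, 12 and 24 h, at 1039, 731, 542 and 1301 RPKM in BF and at 748, 579, 374 and 882 RPKM in BA. Its lowest level was at 12 h in every group, as it was for CYP2E1. PGRMC1, a haem-binding partner of P450 enzymes, was at 538, 355, 153 and 309.5 RPKM in Control at 0, 4, 12 and 24 h, at 371, 204, 196 and 278 RPKM in BF and at 334, 245, 175 and 255 RPKM in BA, also lowest at 12 h in every group. HMOX1, which breaks haem down, was at 44.6, 279, 91.3 and 75.2 RPKM in Control at 0, 4, 12 and 24 h, at 44.8, 158, 185 and 84.8 RPKM in BF and at 39.5, 1182, 54.2 and 70.9 RPKM in BA. It rose at 4 h in every group, by 2.62, 1.80 and 4.87, and BA at 4 h, the column with the unusual ALB share, stood far above the rest. The haem synthesis genes ALAD, UROS, UROD, CPOX, PPOX and FECH were lower at 4 h than at 0 h in each group with the exception of UROS in BF. The median difference of all genes was also below 0 at 4 h, at -0.186 in Control, -0.076 in BF and -0.305 in BA. A lower level at 4 h is therefore not particular to these genes.

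Genes of inflammation were also read beside the P450 levels. A2M, the main acute phase protein of rats, was at 7.61, 939.8, 4637 and 1142 RPKM in Control at 0, 4, 12 and 24 h, at 1772, 3486, 7272 and 1272 RPKM in BF and at 1892, 4688, 9188 and 4421 RPKM in BA. It was lowest in Control at 0 h, the column in which 14 of the 29 P450 genes and 16.6% of all genes were highest. The 10 acute phase genes summed to 33193, 66933, 121429.9 and 84584 RPKM in Control, to 96179, 112218, 142999.99 and 96412 RPKM in BF and to 91850.02, 116428, 137979 and 115689.8 RPKM in BA. The sum was lowest in Control at 0 h and was highest at 12 h in every group. A2M, LCN2, ORM1 and FGB, which are abundant, were each highest at 12 h in every group. HAMP, IL1R1 and STAT3 were instead highest at 4 h in every group, and the time of the highest HP, SAA4 and CRP level differed between groups. Against Control at 0 h, 7 of the 10 were at least 2-fold higher in BF and 7 in BA, where 1.62% and 1.78% of all genes were. The neutrophil-associated genes S100A8, S100A9 and MPO summed to 2.89 RPKM in Control at 0 h. In the other columns their sum was 21.9 to 62.1 RPKM, though MPO alone did not exceed 0.07 RPKM. The 5 macrophage markers summed to 118 to 214 RPKM. The part of inflammation or of other cells in the P450 levels was not tested.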

How the data were processed

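Whole-liver RNA of 3 groups at 4 times after PH was sequenced by the authors as poly(A) libraries with unpaired reads of 50 cycles. The authors deposited 1 table of RPKM values with 2 decimals, averaged over 2 runs per group and time. The submitters' processing notes name CASAVA, Bowtie 0.12.2 and the builds rn4 and mm8, without saying which served for what, and the gene annotation is not given in the sources used here. Reads per sample are unknown, and RPKM of near-identical genes of the CYP1A, CYP2A, CYP2B, CYP2C, CYP2D and CYP3A subfamilies may hold shared reads and are uncertain to that extent.

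Columns were assigned by sample title. The 29 genes, the gene lists and the named genes were chosen with earlier results of these data known. All genes are named, those with a mean of at least 20 RPKM or a log2 change of at least 2 with every value. Of the other lists, up to 4 changed genes in each direction and each receptor were taken. Differences were computed on log2(RPKM + 1) for all 9063 genes reaching 1 RPKM, with no test, since each group and time has 1 column. The counting was tested on simulated data. Alternatives were pseudocounts of 0.1 and 5 RPKM, rescaled columns, other filters, a 1.5-fold threshold and exchanged group names. Those without ALB in the total or without single columns were chosen after seeing the data. Symbols were matched through RefSeq (GRCr8), which also gave the promoters. ALAS1, GLUL, CYP2B2 and CYP3A1 were not matched and were not analysed here, and some genes of the lists are not reported here. Python 3.11.15, numpy 2.4.6, pandas 2.3.3 and matplotlib 3.10.9 were used.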

Additional observations from a re-analysis of the deposited data

Results flagged for a closer look

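A pair of genes had a difference between BF and BA that turned from one side to the other with time, with no test of the change. CYP3A9 was above BA in BF at 0 h (1.07), below it at 12 h (-1.41) and above it at 24 h (1.26) on the log2(RPKM + 1) scale, so that the difference moved by -2.48 between 0 and 12 h and by 2.67 between 12 and 24 h. CYP2C12 changed by 1.15 in BF and by -2.51 in BA between 0 and 4 h, which are 3.67 apart. The difference of BF from BA for this gene went from 2.76 at 4 h to -1.58 at 24 h, a shift of -4.34. Each value rests on 1 averaged column, and BA at 4 h is the column with the unusual ALB share.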

How the results depend on the processing

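Of 147 median differences recomputed under another pseudocount, scaling or filter, 140 stayed within 0.25 on the log2 scale and none changed sign. The 7 that moved were the median of Control at 12 h against 0 h, -1.0 with a pseudocount of 5 RPKM, and, with the columns rescaled on the median gene, those at 24 h against 0 h in Control (-1.01) and BF (-0.83) and at 4 h in BA (-0.24). With the columns rescaled to the same total, BA at 4 h was at -0.81 against 0 h and at -1.01 against Control, and BF against BA at 4 h was at 0.52. The same scaling without ALB moved none of the medians by 0.25. The median of all genes shifted by -0.28 (BA at 4 h) to 0.38 (BF at 24 h) against 0 h, which the rescaling on the median gene removes.

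With BF and BA exchanged, as the sample descriptions read, the medians were -0.59 in BF and -0.90 in BA at 12 h against 0 h, -0.62 in BF and -0.26 in BA against Control at 0 h, and for BF against BA -0.33 at 0 h, the opposite sign, and -0.16 at 4 h. Of 336 counts of changed genes, 287 stayed within 1.5 times the reported count, and 27 of the 49 others came with the threshold at 1.5-fold. At that threshold 10 genes in place of 2 were lower in Control at 4 h. In BF at 4 h it was 17 in place of 6, and in BA at 12 h 15 in place of 7. The share of all genes past 1.5-fold is not given, so these counts cannot be read as an excess. No analysis paired by replicate was possible, because each group and time has 1 column, and no replicate could be left out. The 4 times are not replicates of a group, and a fit that pairs groups over them was not run. Depth is unknown, so that no detection limit can be given.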

Other observations

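The P450 genes of other families serve sterol, bile acid and fatty acid metabolism. The 19 genes found summed to 2138, 2108, 1699.8 and 1922 RPKM in Control at 0, 4, 12 and 24 h and to 4839, 3158, 2809 and 3116 RPKM in BF. In BA they summed to 2954, 1456, 2998 and 3054 RPKM. BF was thus above Control at all 4 times, where the summed level of the 29 genes of families 1 to 3 was below it. Within BF both sums were lowest at 12 h, at 58.0% of 0 h for the other families and 48.0% for families 1 to 3. CYP7A1 was at 60.0, 4.59, 8.53 and 57.3 RPKM in Control at 0, 4, 12 and 24 h, at 387, 13.8, 136 and 334 RPKM in BF and at 54.9, 1.81, 3.17 and 68.8 RPKM in BA, and BF exceeded Control and BA at each time. CYP8B1, which makes cholic acid, was at 136, 164, 135 and 171 RPKM in Control at 0, 4, 12 and 24 h, at 1576, 919, 767 and 1009.8 RPKM in BF and at 110.2, 161, 119 and 189.7 RPKM in BA, high in all 4 BF columns and at most 189.7 RPKM in Control and BA. CYP4A2, a fatty acid hydroxylase under PPARA, was at 192, 214, 423 and 248 RPKM in Control at 0, 4, 12 and 24 h, at 625, 428, 413 and 137 RPKM in BF and at 694, 156, 855 and 652 RPKM in BA, and was higher in BF and BA than in Control at 0 h. At 0 h 5 of the 19 genes were at least 2-fold higher in BF than in Control and 1 was lower, compared with 1.62% and 2.21% of all genes. In BA 3 were higher and 1 was lower, compared with 1.78% and 2.16%. CYP7A1 and CYP8B1 are known to be held down by returning bile acid, and at 0 h they were ordered as the sample titles, not the sample descriptions, name BF and BA.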
